A study of Schizosaccharomyces pombe with 30 samples.

Results

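The comparison described here is that of the *clr6-1* allele with wild-type in H3K9me2 ChIP-seq of the fission yeast *Schizosaccharomyces pombe*. Its members are all 1500 of the 1500 deposited windows of 300 bp, and its values come from 2 *clr6-1* libraries (A and B) and 2 wild-type libraries (B and C) out of 13 ChIP libraries of 5 genotypes. The wild-type strain is PAS332 and the mutant is PAS839, which the study describes as the same *MAT ΔREIII* parent carrying *clr6-1*. Both strains are h90 and carry fluorescent reporter cassettes, so wild-type means wild-type for *clr6* only. The *MAT ΔREIII* background lacks the binding sites of an RNAi-independent nucleation element at the mating type locus. Cells grew in YES medium for 8 h at 32 °C, and *clr6-1* is a hypomorphic allele and not a deletion. Each genotype is represented by a single strain. The methods call the libraries biological replicates, but the labels do not say that they came from separate cultures, so p-values measure only the spread between these libraries.

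Clr6 is a histone deacetylase of class I and the catalytic subunit of several fission yeast complexes. Heterochromatin in this yeast is marked by H3K9 methylation, which the methyltransferase Clr4 deposits. The mark nucleates at defined elements, such as the *dg* and *dh* repeats of the pericentromeres and related sequence in the subtelomeric *tlh* genes, where small RNAs recruit Clr4. From there it spreads along the chromosome. Small facultative islands form over meiotic genes such as *mei4*, where the RNA-binding protein Mmi1 recognizes the hexamer TNAAAC, given here as DNA.

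The sequences shown here are those of the window with the lowest fold change, of the *mei4* window with most hexamers on the gene strand, the called window with the highest fold change and the *tlh* window with the highest fold change. Capitals mark TNAAAC or its reverse complement GTTTNA, the sequences are on the plus strand, and they come from RefSeq assembly ASM294v3.
Lowest fold change, chrIII:1142101-1142400: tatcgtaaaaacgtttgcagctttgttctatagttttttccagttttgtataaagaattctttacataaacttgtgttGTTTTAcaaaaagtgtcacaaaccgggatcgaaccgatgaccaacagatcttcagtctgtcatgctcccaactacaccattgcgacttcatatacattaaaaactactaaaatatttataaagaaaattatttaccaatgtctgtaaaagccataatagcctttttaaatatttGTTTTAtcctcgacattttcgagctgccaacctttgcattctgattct
*mei4*, chrII:1473601-1473900: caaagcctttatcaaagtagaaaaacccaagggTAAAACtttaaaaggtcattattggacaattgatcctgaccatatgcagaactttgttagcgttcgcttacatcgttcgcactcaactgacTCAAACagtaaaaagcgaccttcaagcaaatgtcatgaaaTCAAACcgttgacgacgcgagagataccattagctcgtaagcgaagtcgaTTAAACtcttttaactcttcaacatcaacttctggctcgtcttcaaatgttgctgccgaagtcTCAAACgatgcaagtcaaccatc
Highest called fold change, chrIII:15601-15900: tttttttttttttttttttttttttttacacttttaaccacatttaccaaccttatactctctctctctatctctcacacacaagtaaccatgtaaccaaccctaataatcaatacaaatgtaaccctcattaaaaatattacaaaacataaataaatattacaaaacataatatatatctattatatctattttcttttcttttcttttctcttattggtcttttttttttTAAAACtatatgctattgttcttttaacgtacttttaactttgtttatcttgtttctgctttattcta
*tlh1*, chrI:2101-2400: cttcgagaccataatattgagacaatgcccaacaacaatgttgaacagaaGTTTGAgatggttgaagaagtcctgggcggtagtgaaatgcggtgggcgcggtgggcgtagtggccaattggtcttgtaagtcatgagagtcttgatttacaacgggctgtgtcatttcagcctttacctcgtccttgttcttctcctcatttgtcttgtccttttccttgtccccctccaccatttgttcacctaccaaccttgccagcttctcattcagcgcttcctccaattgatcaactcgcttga
The first window lies on the right arm side of centromere III and holds the phenylalanine tRNA gene SPCTRNAPHE.05. The second lies inside *mei4* and has 5 hexamers, all on the gene strand. Of 1435 windows on the chromosomes, 1000 (69.7%) had at least 1 match on either strand, but 5 windows (0.348%) had 5 or more on one strand. The third lies in the spacer between the 18S and 28S rRNA genes at the left end of chromosome III. The fourth lies in the RecQ-type helicase gene *tlh1*.

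Libraries held 6619424 to 10737573 fragments in the 5 kb bins, and the windows held 57.3% to 70.3% of them. Counts were divided by size factors from the 5 kb bins. Unmarked chromatin, taken as the median of bins that hold no window, came to 104 to 105 normalized fragments per 300 bp window in the 4 libraries. The wild-type libraries differed in enrichment: wild-type B exceeded wild-type C by a median factor of 1.69 over the windows, whereas *clr6-1* A and B differed by a median factor of 0.943. Ratios between locations within a library do not depend on scaling between libraries. As a percentage of above-background signal over the centromere repeats, the subtelomeres held 20.8% and 22.4% in wild-type B and C and 12.4% and 11.2% in *clr6-1* A and B. The pericentromeres outside the repeats, a set that includes the central stretches of the centromeres, held 22.4% and 23.9% against 17.8% and 16.5%. The islands held 4.23% and 4.65% against 0.0674% and 0.0668%. In these 3 sets the genotypes did not overlap, whereas in the mating type region they did (21.5% and 23.0% against 25.1% and 21.3%).

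Windows called reduced in H3K9me2 were widespread in *clr6-1*, and few were called increased. By edgeR's quasi-likelihood test, with a Benjamini-Hochberg adjusted p below 0.005 and a log2 fold change beyond 1, 546 of 1500 windows (36.4%) were reduced and 6 (0.4%) were increased. Both *clr6-1* libraries lay below both wild-type libraries in 673 windows (44.9%) and above both in 461 (30.7%). At an unadjusted p below 0.05, 617 windows were lower and 149 of the 1500 higher. Without *clr6-1* A the test called 342 windows reduced, and without *clr6-1* B it called 338. The increased windows fell to 2, 1, 2 and 2 without wild-type B, wild-type C, *clr6-1* A and *clr6-1* B. The split depended on scaling: increased windows were 1.09% of called windows as scaled here, and 21.1% (142 against 532 reduced) with TMM factors from the windows themselves, which moved the median log2 fold change of all windows from 0.02 to 0.18.

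The change was sorted by place. The reduced windows comprised 264 of 391 subtelomeric windows of chromosomes I and II, 238 of 332 pericentromeric windows outside the shared repeats, 22 of 34 island windows, 12 of 111 windows of the mating type region, 9 of 178 windows elsewhere and 1 of 131 at the ends of chromosome III. The pericentromeric set also holds the central stretches between the innermost repeats, with 24, 33 and 31 windows at centromeres I, II and III. Of these, 20, 13 and 23 were reduced. No window of the centromere repeats (284) or of *tlh1* and *tlh2* (39) was called in either direction. In the latter sets 0 windows reached an unadjusted p below 0.05, and DESeq2 called 0 of them reduced.

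**Figure D1:**
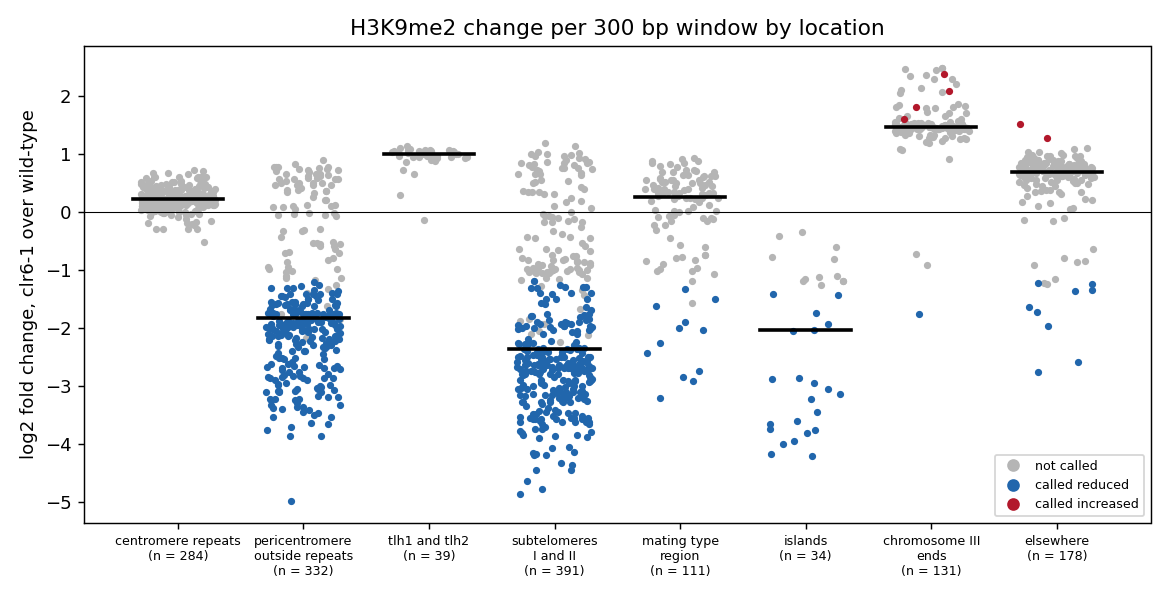
Each point is 1 of the 1500 windows of 300 bp, placed by location, with its log2 fold change of *clr6-1* over wild-type on the vertical axis, and black lines are medians. Reduced windows sit in the subtelomeres (median -2.36), the pericentromeres outside repeats with the central stretches (-1.82) and the islands (-2.03). The 6 increased windows lie at the ends of chromosome III and elsewhere.

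The centromere repeats, stretches shared by all 3 centromeres that hold *dg* and *dh*, had no window past the threshold in either direction. Mean normalized counts per window were 21154 in wild-type B, 11186 in wild-type C, 17975 in *clr6-1* A and 20442 in *clr6-1* B. Both *clr6-1* libraries lay between the wild-type libraries. Above-background signal was 119% of wild-type, with 84.9% to 184% between single pairs of libraries. The median log2 fold change was 0.23 over 284 windows, and single windows ranged from -0.51 to 0.73. The test could not resolve changes of this size: at the window of II 1603801 to 1604100, the log2 fold change of 0.73 had a standard error of 0.77 (edgeR adjusted p = 0.50).

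The *tlh1* and *tlh2* genes, which encode subtelomeric helicases and hold sequence related to the centromere repeats, had higher counts in *clr6-1*. Mean counts over their 39 windows were 11291 and 6068 in wild-type B and C against 16488 and 17338 in *clr6-1* A and B. Both *clr6-1* libraries lay above both wild-type libraries in 37 of the 39 windows. All 19 windows of *tlh1* and 18 of the 20 of *tlh2* share sequence with another chromosome end. Fragments there could stem from more than 1 end. In the 2 *tlh2* windows without shared sequence the genotypes overlapped, with log2 fold changes of -0.14 and 0.31 and 111% of wild-type signal left. Over all 39 windows the median log2 fold change was 1.01, and no window passed the test. Within libraries, above-background signal over *tlh* was 53.1% and 53.8% of that over the centromere repeats in wild-type and 91.7% and 84.7% in *clr6-1*. For the summed level of a location, 2 libraries against 2 allow no exact 2-sided permutation p below 0.33, which is the value for *tlh*.

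Away from *tlh*, the share of wild-type H3K9me2 left in *clr6-1* was lowest between 15 and 20 kb and did not decrease further. On the left end of chromosome I (tel IL) and the centromere side of *tlh2* (tel IIR), the first 2 kb held 176% of the wild-type signal above background. Of the windows of these ends, 105 of 115 at tel IL and 99 of 120 at tel IIR share sequence with another chromosome end. The 2 ends are therefore not fully separate measurements. From 2 to 4 kb the share was 190%, and from 4 to 6 kb it was 105%. It was then 48.0% from 6 to 8 kb, 17.0% from 8 to 10 kb and 6.67% from 15 to 20 kb. All 34 windows of the 15 to 20 kb step and all 60 of the 20 to 30 kb step were reduced. From 20 to 30 kb the share was 9.32%, and beyond 30 kb it was 21.9%. In the 10 to 15 kb step 34.3% was left at tel IL and 8.81% at tel IIR.

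The window of lowest fold change in the subtelomeres, II 4507801 to 4508100, lies 18785 bases from *tlh2*. It held 3245 and 2244 fragments in wild-type B and C, and 104 and 83.9 in *clr6-1* A and B, which is the level of unmarked chromatin. The log2 fold change was -4.86 with a standard error of 0.60. At tel IL the lowest was I 28201 to 28500, with 3866 and 2568 fragments against 133 and 127 (log2 fold change -4.63). At tel IR the lowest was I 5570101 to 5570400, with 11233 and 7046 against 490 and 398 fragments, so signal remained above background there. At tel IIL it was II 4801 to 5100, with 3073 and 2100 against 92.9 and 96.8. The longest run of adjacent reduced windows spanned 11700 bases at tel IIR (39 windows), followed by 10200 bases at tel IL (34 windows).

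The remaining ends have no *tlh* gene in the annotation. At the right end of chromosome I (tel IR), the outermost 2 kb held 166% of wild-type signal, the next 2 kb 73.9% and the step from 4 to 6 kb 21.5%. At the left end of chromosome II (tel IIL) windows were reduced from the start of the reference sequence. Mean counts in its first 2 kb (4099 and 2336 against 283 and 300) were near those of tel IIR at 15 to 20 kb from *tlh2* (3858 and 2230 against 284 and 300). How far the reference sequence lies from the telomere there was not tested. The outermost 2 kb of tel IIL held 6.00% of wild-type signal, and 59 of its 69 windows were reduced. On the telomere side of *tlh2* the shares were 78.9%, 109%, 63.7% and 65.9% in steps of 2 kb, and none of those windows was called. Of the 391 subtelomeric windows 334 share sequence with another chromosome end, among them all 69 of tel IIL, so fragments there could stem from more than one end, and the part of this in the result was not tested. Of the 57 that do not, 26 were reduced, comprising 6 of 10 at tel IL, 20 of 26 at tel IR and 0 of 21 at tel IIR. Those 21 are the windows on the telomere side of *tlh2*. The subtelomeric count of 264 was 171 without *clr6-1* A.

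**Figure D2:**
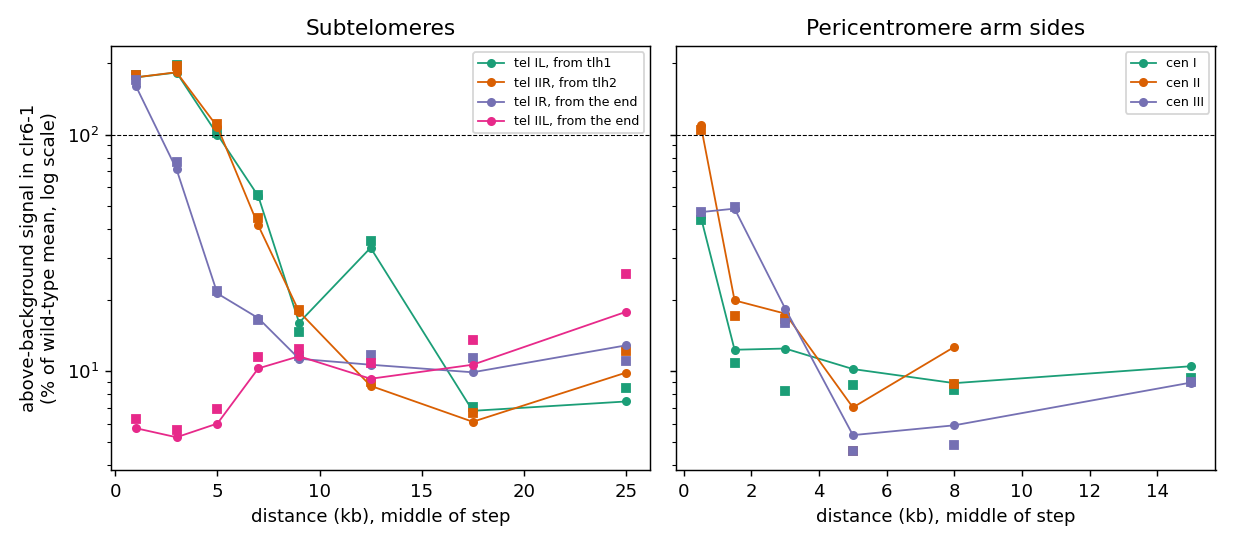
Above-background H3K9me2 in *clr6-1* as a percentage of the wild-type mean (vertical, log scale) against distance in kb from *tlh*, the chromosome end or the nearest centromere repeat window (the last centromere point holds all windows beyond 10 kb). Circles with lines are *clr6-1* A and squares are *clr6-1* B. The tel IL and tel IIR curves start at 176% and reach 6.93% and 6.37% at 15 to 20 kb. The tel IIL curve, counted from the start of the reference sequence, starts at 6.00%. Most windows of tel IL and tel IIR and all of tel IIL share sequence with another chromosome end.

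Of 48 protein-coding subtelomeric genes covered by at least 2 windows, other than the *tlh* genes, 47 had a lower summed count in *clr6-1* and 1 had a higher one. Every window was reduced in 33 of them, and 39 had at least 1 reduced window. Because 334 of the 391 subtelomeric windows share sequence with another chromosome end, these genes are not all separate measurements. The lowest were SPAC212.02 (log2 ratio -3.56), SPBCPT2R1.02 (-3.50), SPAC212.04c (-3.39), SPBCPT2R1.03 (-3.22) and SPBC1348.15 (-3.20), all annotated only as uncharacterized proteins. SPAC212.02 averaged 3895 and 2160 fragments per window in wild-type and 260 and 254 in *clr6-1*. The gene with the higher count was SPAC750.08c, annotated as an NAD-dependent malic enzyme at the very end of tel IR (log2 ratio 1.03, no window called). The next highest were the L-asparaginase genes SPAC186.03 (-0.61) and SPAC977.12 (-0.66), SPAC750.07c (-0.64) and the GPI-anchored protein gene SPAC212.08c (-0.78), none with a called window.

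Around the centromeres, the share left decreased within a few kb of the repeats, and the first kb differed in value between centromeres. Over the arm sides of the 3 centromeres, 69.2% of above-background signal was left in the first kb, 35.3% in the second, 16.7% from 2 to 4 kb and 6.32% from 4 to 6 kb. All 28 windows of that last step were reduced, as were 45 of 47 from 6 to 10 kb and 63 of 65 beyond. Summed over all 332 windows outside the repeats the share was 89.0%, and with the median over windows in place of the sum it was 9.88%. In the first kb 44.3% was left at centromere I and 47.0% at centromere III, with 3 and 2 of 8 windows reduced, against 107% at centromere II, with 2 of 8 reduced. At centromere III 49.0% was left between 1 and 2 kb, against 11.6% at centromere I and 18.5% at centromere II. The count of 238 reduced windows was 147 without wild-type B, 139 without *clr6-1* A and 131 without *clr6-1* B.

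The window of lowest fold change in the whole comparison, III 1142101 to 1142400, lies 3601 bases from the repeats of centromere III and is the first sequence printed above. It held 9001 and 5133 fragments in wild-type B and C against 240 and 207 in *clr6-1* A and B. The genotypes did not overlap, and the log2 fold change was -4.98 with a standard error of 0.74. At centromere I the lowest window (I 3795901 to 3796200) overlaps *rad50*, which encodes a DNA repair protein, with 1280 and 926 against 101 and 94.7 fragments. At centromere II the lowest window (II 1647301 to 1647600) holds the arginine tRNA gene SPBTRNAARG.07, with 1254 and 780 against 76.9 and 73.1 fragments.

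The central stretch of centromere II, between its innermost repeats, split sharply. The filter kept 33 of the 60 windows possible there, 24 of 45 at centromere I and 31 of 56 at centromere III. The other windows were not tested. The 11 windows of II 1614901 to 1618200 held 156% of wild-type signal and the 9 windows of II 1630201 to 1632900 likewise held 156%, and none of these was called. Between them all 13 tested windows of II 1618201 to 1630200 were reduced, with 10.1% left. They averaged 3749 and 2270 fragments in wild-type B and C and 448 and 350 in *clr6-1* A and B. Both changes of direction lie within 100 bases of an isoleucine tRNA gene. The left one is 92 bases from SPBTRNAILE.06, where the log2 fold change went from 0.12 to -2.98 between adjacent windows. The right one is 78 bases from SPBTRNAILE.07, where it went from -2.99 to 0.05. At centromere I, 20 of the 22 windows of I 3764701 to 3777600 were reduced, and the changes of direction lay 307 and 335 bases from alanine tRNA genes. At centromere III, 23 of 25 windows of III 1092001 to 1107000 were reduced. The windows just outside this stretch had log2 fold changes of 0.09 and 0.10, and the windows just inside -0.01 and -0.06. Those next further out had -0.32 and -0.29. The drop lay further inward. Between the outermost repeats, none of the 15 windows within 1 kb of a repeat window was reduced. All 6 windows between 1 and 2 kb were reduced, with log2 fold changes from -3.65 to -2.39. The nearest tRNA genes, for aspartate, lay 436 to 743 bases from the small changes of sign near the edges of the stretch. Their distance from the drop itself was not measured. That a change lies near a tRNA gene is a description of position. Sequence shared between the left and right sides of a central stretch was not tested, so the sides may not be separate measurements.

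**Figure D3:**
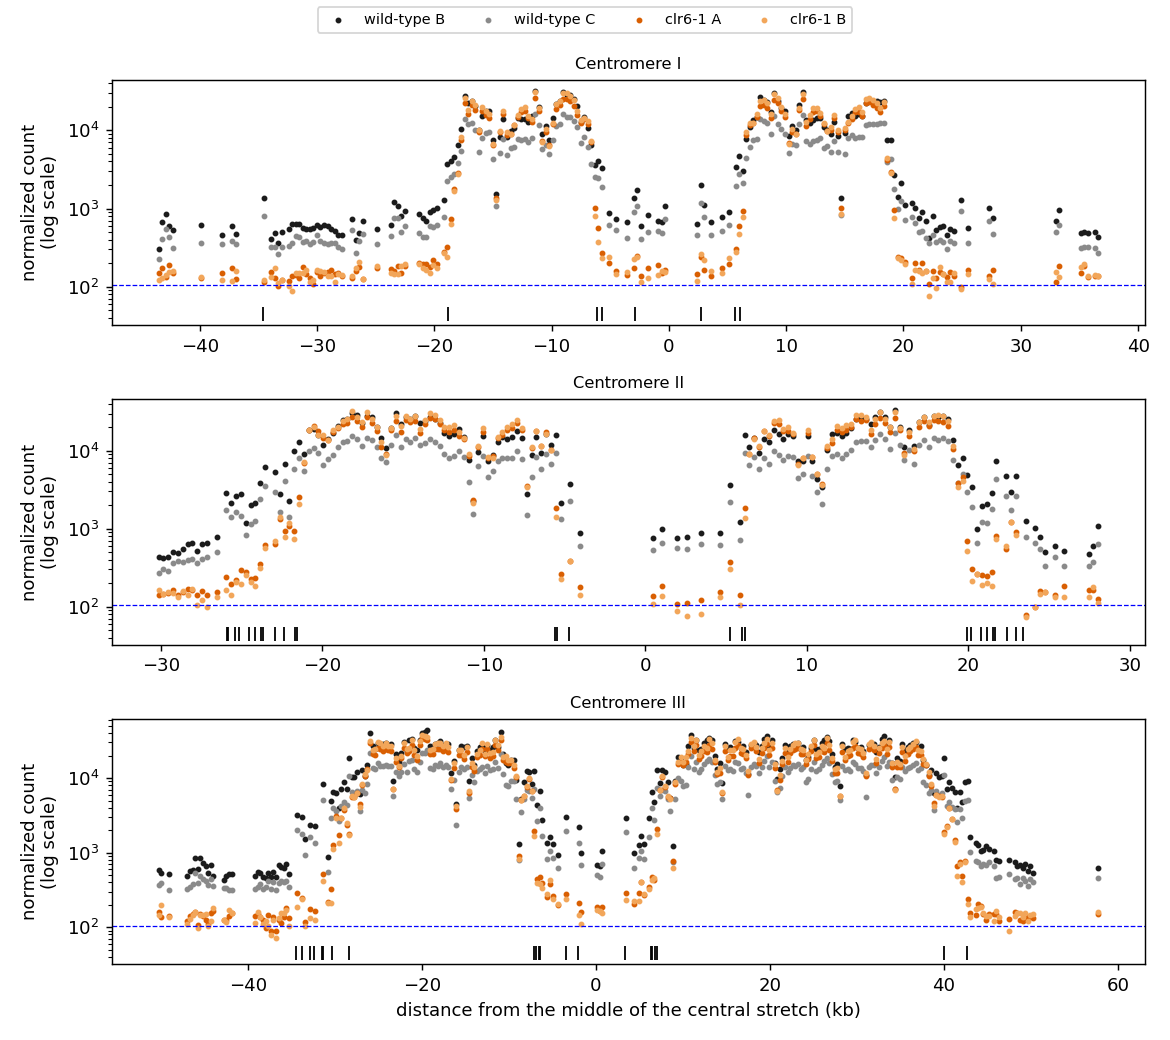
Normalized fragments per window (vertical, log scale) in the 4 libraries against distance in kb from the middle of the central stretch of each centromere. Black ticks mark tRNA genes and the dashed line marks unmarked chromatin (104). Over the repeats the *clr6-1* means (17975 and 20442) lie between those of wild-type. On the arm sides beyond 4 kb and in the middle of the central stretches they drop toward the dashed line, but not in the outer windows of the central stretch of centromere II, which hold 156% of wild-type signal.

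At the islands H3K9me2 fell to the level of unmarked chromatin. Windows lay within 1 kb of the island genes *mei4*, *ssm4*, *mcp7*, *num1* and *mug8*. Over their 34 windows the mean was 996 and 620 fragments in wild-type B and C and 117 and 118 in *clr6-1* A and B. Both *clr6-1* libraries were lower in 33 windows, and 22 were called. Of the signal above background 1.82% was left. All 19 island windows that exceeded 3 times background in both wild-type libraries were under 1.5 times background in both *clr6-1* libraries. With windows of all locations this held for 123 of 1261 such windows (9.75%). It held for 80 of 320 pericentromeric windows outside the repeats (25%) and 19 of 359 subtelomeric windows (5.29%). Wild-type levels differed between locations, so these shares are not matched for starting level.

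At *mei4*, which encodes a meiotic forkhead transcription factor, all 6 windows were reduced. They averaged 2046 and 1245 fragments in wild-type and 130 and 127 in *clr6-1*. The lowest window, II 1474201 to 1474500, went from 2937 and 1862 to 120 and 140 fragments (log2 fold change -4.21, standard error 0.68). At *ssm4*, a gene of meiotic nuclear movement, 8 of 10 windows were reduced, with means of 1089 and 669 against 118 and 117. At *mcp7*, a meiotic recombination gene, 7 of 9 were reduced, with means of 891 and 554 against 105 and 117. At *num1* the wild-type level was low, 305 and 222 against 118 and 109, and 1 of 8 windows was called although all 8 were lower in both *clr6-1* libraries. The single *mug8* window (229 and 156 against 127 and 163) overlapped between genotypes. The highest island window where the genotypes did not overlap was I 580801 to 581100, in *ubp8* beside an island gene, with 212 and 179 against 151 and 157 fragments (log2 fold change -0.35). A window over *mug9*, which by position fell among the ends of chromosome III, was reduced, from 542 and 377 to 119 and 153 fragments (log2 fold change -1.76), but was not called without wild-type B, *clr6-1* A or *clr6-1* B.

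**Figure D4:**
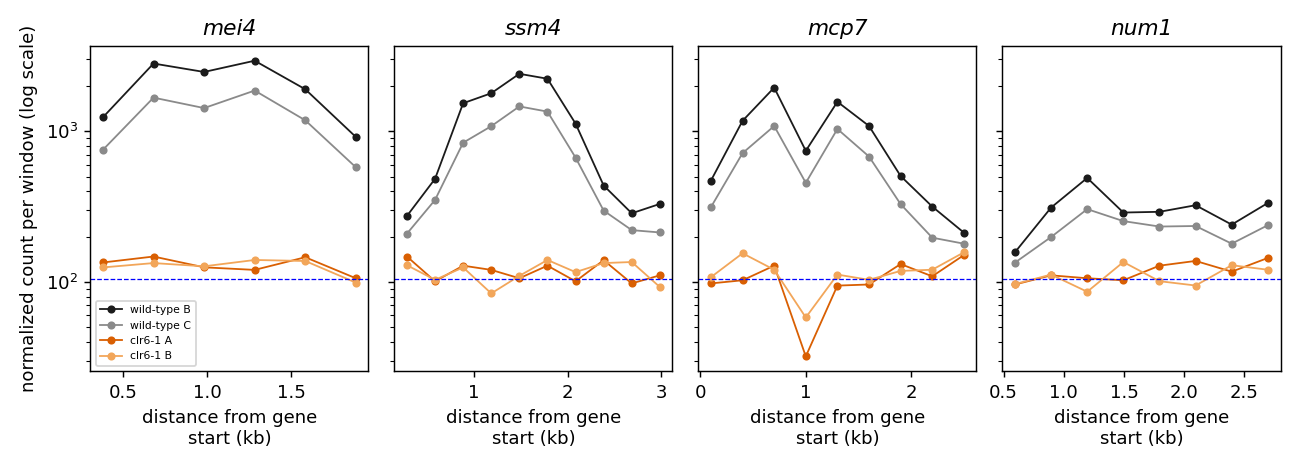
Normalized fragments per window (vertical, log scale) along 4 island genes, by distance in kb from the annotated gene start, in the 4 libraries. The dashed line marks unmarked chromatin (104), near which both *clr6-1* libraries lie at *mei4*, *ssm4*, *mcp7* and *num1*.

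In the mating type region most windows did not pass the test. The 65 windows of the mating type contig averaged 6590 and 3743 fragments in wild-type B and C and 6670 and 6390 in *clr6-1* A and B, and 3 were reduced. By steps of 2 kb, 114% to 141% of wild-type signal was left along the contig, except for 63.0% between 16 and 18 kb. On chromosome II, 4 of 17 windows left of the inverted repeats were reduced and 3 of 4 right of them, with 37.9% and 13.4% left. From the left to the right repeat the share was 126%. The lowest window was II 2136901 to 2137200, at the outer edge of the right inverted repeat, with 1538 and 1103 against 160 and 125 fragments (log2 fold change -3.21). The class count of 12 reduced windows was 7 without *clr6-1* B. The inverted repeats on chromosome II are 99.3% identical. The paper states that *cenH*, a nucleation element of this region, is homologous to sequence at the centromeres and telomeres. Fragments there could stem from more than 1 place, and the part of this in the result was not tested.

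The ends of chromosome III, which carry ribosomal DNA, had the opposite direction. Mean counts over 131 windows were 2685 and 1611 in wild-type B and C and 6495 and 6817 in *clr6-1* A and B. Both *clr6-1* libraries lay above both wild-type libraries in 128 windows. The median log2 fold change was 1.47, and 71 of the 131 windows were higher at an unadjusted p below 0.05 (149 of 1500 over all locations), but 4 passed the adjusted threshold. Only 15 of the 131 lie on the centromere side of the last rRNA gene. The others tile copies of the repeated rDNA unit, so they are not separate measurements. In the long spacers between 18S and 28S genes the median was 1.72 and 391% of wild-type signal was present. Over the rRNA genes and short internal spacers it was 1.46 and 282%. Relative to centromere repeats in the same library, above-background signal was 12.3% and 13.6% in wild-type and 35.8% and 33.0% in *clr6-1*. The number of rDNA copies in each strain was not tested, and the inputs were not analysed here.

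The called spacer windows were III 15601 to 15900, with 1254 and 763 against 5217 and 5339 fragments (log2 fold change 2.39, standard error 0.75), and III 4801 to 5100, with 579 and 318 against 1926 and 1885 (2.09). They lie at nearly matching places of neighbouring rDNA units, which repeat every 10870 bases, so they are not separate measurements. Window III 15301 to 15600 had a higher fold change (2.50) but missed the threshold (edgeR adjusted p = 0.007). The other called windows at these ends were III 24901 to 25200 (63.3 and 56.6 against 176 and 187) and III 2430901 to 2431200 in SPCC569.03 (95.7 and 61.4 against 279 and 271). Both were below unmarked chromatin in wild-type. They passed the authors' filter for windows above background only through libraries of other genotypes, so the filter favoured an increase over wild-type there.

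**Figure D5:**
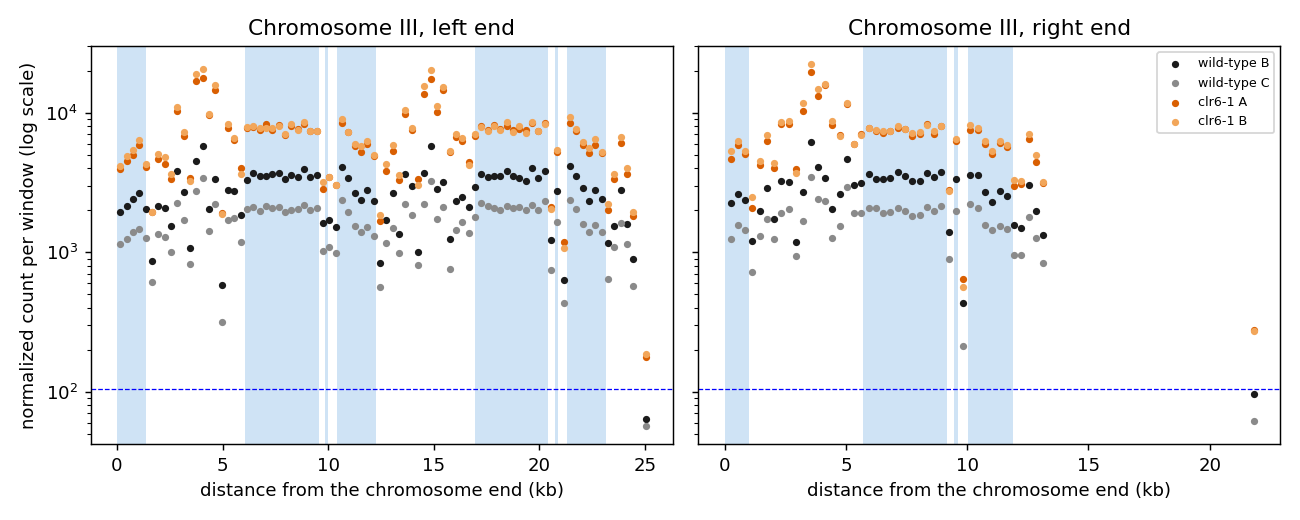
Normalized fragments per window (vertical, log scale) by distance in kb from both ends of chromosome III, in the 4 libraries. Shading marks annotated rRNA genes and the dashed line unmarked chromatin (104). Both *clr6-1* libraries lie above both wild-type libraries over the rDNA, with peaks in the spacers.

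Elsewhere, the 13 Tf2 retrotransposons had slightly higher values in *clr6-1*, none past the threshold. Their 127 windows averaged 179 and 162 fragments in wild-type and 238 and 328 in *clr6-1*, and both *clr6-1* libraries were higher in 124. The median log2 fold change was 0.74, the medians of single elements ranged from 0.67 to 0.83, and 67 of the 127 windows were higher at an unadjusted p below 0.05 (149 of 1500 over all locations). The copies share sequence, so they are not separate measurements. Their means were 1.71 and 1.55 times unmarked chromatin in wild-type and 2.28 and 3.14 times in *clr6-1*. Windows this close to background in wild-type may have passed the authors' filter through libraries where they are high, which favours higher values against wild-type. The 2 increased windows elsewhere lay at II 2198701 to 2199000, in the long noncoding RNA gene SPNCRNA.394 (365 and 231 against 785 and 919, log2 fold change 1.52), and III 276601 to 276900, in the malate transporter gene *mae2* (261 and 170 against 510 and 534, 1.28). All but 1 of the 6 increased windows missed the threshold without at least 1 library. The exception was III 2430901, which was below unmarked chromatin in wild-type. Among the 9 reduced windows were all 3 over SPAC8C9.04 (528 and 314 against 144 and 117) and 1 over *nro1* (1285 and 768 against 165 and 179). That count was 3 without wild-type B, 5 without *clr6-1* A and 2 without *clr6-1* B. At *swi6*, which encodes the heterochromatin protein HP1, 3 windows averaged 719 fragments in wild-type B and 147 in wild-type C, 345 in *clr6-1* A and 143 in *clr6-1* B, and none was called.

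The 5 kb bins showed weak loss beyond the windows. Of 2520 bins, 92 (3.65%) were reduced and 6 (0.238%) increased, and among the 2352 bins without a window 33 were reduced and 3 increased. Of those 33, 17 lay within 84804 bases of a chromosome end, 14 within 31101 bases of a centromere cluster and 2 within 34211 bases of the mating type locus. Each distance is that of the farthest called bin, and the uncalled bins within it were not counted. Median log2 fold changes of the reduced bins were -1.15 near chromosome ends, -1.16 near centromeres and -1.07 near the mating type locus. The 92 were 57, 59 and 53 without wild-type B, *clr6-1* A and *clr6-1* B, and the 33 were 9 without wild-type B and 53 without wild-type C. The increased bin I 2935001 to 2940000, which overlaps *cbm1*, held 271 and 321 fragments in wild-type and 957 and 1364 in *clr6-1*, all below the median bin of 1741.

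Against the other Clr6 complex mutants, windows past the threshold were few for *Δfkh2* and more for *Δprw1*. Fkh2 and Prw1 are subunits of Clr6 complexes. In the same fit 3 windows (0.2%) were higher and 3 (0.2%) lower in *clr6-1* than in *Δfkh2*, while at an unadjusted p below 0.05 565 were higher and 137 lower. Over the centromere repeats the median log2 difference was 2.23, and 281 of 284 windows were higher at an unadjusted p below 0.05 although none passed the adjusted threshold. The *Δfkh2* libraries held 30.8%, 50.5% and 36.9% of fragments in windows, against 68.4% and 70.3% in *clr6-1*, and the part of this difference in enrichment in the contrast was not tested. In the *Δprw1* libraries the windows held 33.1%, 64.5% and 37.4%, and in *clr3-D232N* 27.1% to 29.0%. Against *Δprw1*, 161 windows (10.7%) were higher and 0 lower in *clr6-1* by edgeR, and at an unadjusted p below 0.05 522 were higher and 0 lower. They comprised 92 subtelomeric windows, 56 of the mating type region, 6 of centromere repeats, 5 of the pericentromere outside repeats and 2 elsewhere. No island window passed the threshold in either contrast, with 8 lower than in *Δfkh2* and 0 different from *Δprw1* at an unadjusted p below 0.05, and with medians of -0.42 against *Δfkh2* and 0.03 against *Δprw1*. Against *clr3-D232N*, an allele of the deacetylase Clr3, 618 windows (41.2%) were higher and 85 (5.67%) lower in *clr6-1*. Those higher included 280 of 284 centromere repeat windows and all 39 *tlh* windows, and those lower included all 34 island windows.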

How the data were processed

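The authors deposited raw fragment counts, not normalized, in 1500 windows of 300 bp and 2520 bins of 5 kb. Per the labels and methods, the authors used Trimmomatic 0.39, Bowtie2 2.4.2, Picard 2.25.2 and SAMtools 1.12 on build ASM294v2, kept proper pairs without duplicates, counted with csaw, set aside regions around genes altered in the strains and kept windows above a background threshold. One wild-type and one *clr6-1* ChIP library, removed by the authors, and the 15 inputs were not analysed here. Chromosome lengths equal those of RefSeq ASM294v3, which gave annotation and sequence.

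Counts of all 13 libraries entered 1 fit by edgeR 4.0.16 (R 4.3.3) that had no term but genotype, scaled by median-of-ratios size factors (DESeq2 1.42.0) of the 5 kb bins. The study's methods used DESeq2 for the test, which was run here as an alternative. The fit was tested on simulated data. DESeq2 on bins used a mean dispersion, and 5 kb bins were fitted like windows.

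Locations were set by position and blastn 2.17.0 (at least 300 bases at 90% identity): centromere repeats were shared by all 3 centromeres, pericentromeres reached 10000 bases beyond the centromere cluster, subtelomeres and chromosome III ends 100000 bases from the ends, the mating type region 15000 bases and islands 1000 bases from their genes. Background was the median bin without windows, scaled by length. Windows named are, for each location, chromosome end and centromere, those of lowest and highest fold change among windows where the genotypes did not overlap, every increased window, and the island genes, *tlh* genes and 5 lowest and highest subtelomeric genes. *swi6*, SPAC8C9.04, *nro1* and the *cbm1* bin were named after their values were seen. Members and lists were chosen with earlier results of these data known. Alternatives varied the test, scaling, samples, thresholds, filter and libraries.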

Additional observations from a re-analysis of the deposited data

How the results depend on the processing

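Under the alternative tests, scalings, filters and thresholds, reduced windows numbered 381 to 604 against 546, and centromere repeats and *tlh* had 0 in each. Increased windows (6) were 17 with DESeq2, 31 with total-count scaling, 142 with TMM on the windows, 33 with wild-type and *clr6-1* alone in the fit, 3 without the 25% of windows of lowest count and 30 at an adjusted p below 0.05. With total counts, reduced windows of the mating type region were 19 (12). With TMM on the windows those elsewhere were 5 (9). Without the lowest windows, reduced windows were 7 in the mating type region, 131 in the pericentromere outside repeats and 1 elsewhere, where fewer windows were tested.

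Leaving out 1 library at a time, with the lone library assumed to vary like the other genotypes, gave 338 to 557 reduced and 1 to 2 increased windows. By location the reduced windows were 7 to 14 (mating type region), 131 to 239 (pericentromere), 0 to 1 (chromosome III ends), 2 to 11 (elsewhere) and 171 to 270 (subtelomeres). Reduced bins were 53 to 117, those without windows 9 to 53 and increased bins 3 to 4. Above-background signal left ranged from 90.8% to 172% at centromere repeats and from 150% to 282% at *tlh*.

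With the median over windows in place of the sum, the log2 difference was -2.33 for the pericentromere outside repeats (summed -0.11), 0.66 elsewhere (0.38), -1.78 at islands (-2.74) and -3.04 in subtelomeres (-0.54), with 9.88%, 244%, 4.73% and 8.14% of signal left. Without windows within 1 kb of the repeats, the pericentromere difference was -0.96 with 47.0% left. Without the lowest windows, the level elsewhere turned to -0.080 with 90.8% left, and the cause was not tested.

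Replicate letters mark no pairing in the labels, and wild-type and *clr6-1* share only letter B. With the replicate block, 550 windows were reduced and 16 increased. Of 245 alternative values for the 35 named windows, 218 kept direction and side of the threshold, 21 (of 6 windows) lost the call, 6 gained it and 0 turned direction. Depth, 2 libraries per genotype and the spread shared over all genotypes limit what the test can call, so a window that was not called may still differ. The median edgeR dispersion was 0.150 with all genotypes in the fit and 0.0693 with wild-type and *clr6-1* alone.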
